A study of Homo sapiens with 8 samples.

Results

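The genes described are the noncoding host genes of small nucleolar RNAs (snoRNAs), measured in IMR32, an established neuroblastoma cell line of human origin with amplified MYCN. They were chosen by symbol alone: every gene named SNHG followed by a number, together with GAS5, ZFAS1, DANCR and EPB41L4A-AS1. The gene annotation used here, GENCODE release 29, lists SNHG32 as protein-coding under the name C6orf48. Of 58787 gene identifiers in the count table, 33 matched and 30 had at least 1 count. SNHG27 and both identifiers of SNHG28 had no count in any library, which allows a level of up to 0.00694 CPM over the 8 libraries (CPM are counts rescaled to a shared library size, and the limit corresponds to 3 counts). SNHG9, SNHG18, SNHG21, SNHG22 and SNHG25 lay under a mean of 1 CPM, and the other 25 lay above it.

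The series asks how transcripts of MYCN-driven neuroblastoma cells respond when the RNA helicase eIF4A is blocked. IMR32 cells, labelled wild type, were kept for 6 h with CR31B at the IC50 or with 0.1% DMSO as vehicle, and each group has 4 libraries of polyadenylated RNA. CR31B is a rocaglate, a compound class that clamps eIF4A onto RNA. The series describes 4 biological replicates of a single cell line, and it holds no untreated cells and no other cell line.

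Per the labels, replicate 1 of either group was read paired-end and replicates 2 to 4 were read single-end. The difference between the groups in replicate 1 ran opposite to that in replicates 2 to 4 for most genes that differed. Groups are therefore called by their labels, directions follow the 6 single-end libraries, and the replicate 1 difference is given beside the genes called there. Whether replicate 1 differs through its layout or through its labels cannot be told apart, because the paired-end layout holds 1 library per group. Total counts ranged from 43687828 to 64715535 per library, and the 30 host genes took 0.157% to 0.188% of them. The 8 neuroblast markers summed to 4988 to 6498 CPM in the libraries labelled CR31B and to 4659 to 6436 CPM in those labelled DMSO. The 10 markers of other cell types summed to 25.2 to 36.0 and 19.95 to 38.7 CPM, and 7 of them were under 1 CPM in every library.

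snoRNAs are short RNAs that guide chemical changes of ribosomal RNA in the nucleolus. Box C/D snoRNAs guide methylation of the ribose, box H/ACA snoRNAs guide conversion of uridine to pseudouridine, and scaRNAs guide the same changes on spliceosomal RNAs in Cajal bodies. Most human snoRNAs are cut from the introns of a host transcript, so a host gene can matter for its introns and not for its spliced exons. Many spliced noncoding hosts carry short open reading frames, are engaged by ribosomes and are broken down by nonsense-mediated decay, which depends on translation. Several begin with a terminal oligopyrimidine tract, the start that also marks the messenger RNAs of ribosomal proteins.

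The first bases of the transcripts are shown because this tract is the sequence feature that host genes are known for. The windows come from RefSeq (GRCh38.p14) and hold the last 20 bases before the annotated start and the first 30 after it, 5′ to 3′ on the gene's strand. Capitals mark a tract, defined as a C at the first transcribed base followed by at least 4 more C or T. The first 4 genes have it and the last 3 do not.
SNHG4 (chr5:139274081-139274130, plus strand): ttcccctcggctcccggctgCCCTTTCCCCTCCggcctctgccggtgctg
SNHG5 (chr6:85678704-85678753, minus strand): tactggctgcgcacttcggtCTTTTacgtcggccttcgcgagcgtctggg
SNHG32 (chr6:31834896-31834945, plus strand): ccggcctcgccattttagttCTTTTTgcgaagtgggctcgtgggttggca
ZFAS1 (chr20:49278622-49278671, plus strand): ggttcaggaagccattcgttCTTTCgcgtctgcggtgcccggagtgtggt
SNHG20 (chr17:77088623-77088672, plus strand): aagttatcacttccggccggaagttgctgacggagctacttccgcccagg
DANCR (chr4:52712374-52712423, plus strand): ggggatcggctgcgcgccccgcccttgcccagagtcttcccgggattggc
SNHG30 (chr17:35568094-35568143, plus strand): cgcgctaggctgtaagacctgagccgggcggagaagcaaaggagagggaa

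The starts of 26 of the 30 host genes were searched, and SNHG6, SNHG9, SNHG15 and SNHG25 were not among them. Of the 26, SNHG4, SNHG5, SNHG12, SNHG18, SNHG19, SNHG32 and ZFAS1 began with a tract, which is 26.9%. Of all 35116 RefSeq promoters searched the same way, on the strand of the gene, 1429 (4.07%) did. The match refers to the annotated start alone, and the starts used in IMR32 cells were not measured.

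Beside these starts, 3 snoRNAs are shown for host genes whose level differed between the groups. They are taken from GENCODE release 29 (GRCh38). SNORD7 lies in SNHG30, and its capitals mark box C (TGATGA) and box D (CTGA). SNORA26 lies in DANCR and SNORA9 in SNHG15, and their capitals mark the ACA near the 3′ end.
SNORD7 (chr17:35573657-35573753, plus strand): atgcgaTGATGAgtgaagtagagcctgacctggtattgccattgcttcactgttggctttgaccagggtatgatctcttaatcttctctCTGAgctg
SNORA26 (chr4:52713249-52713370, plus strand): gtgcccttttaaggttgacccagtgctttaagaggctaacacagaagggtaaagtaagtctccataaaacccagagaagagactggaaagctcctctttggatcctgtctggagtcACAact
SNORA9 (chr7:44985378-44985510, minus strand): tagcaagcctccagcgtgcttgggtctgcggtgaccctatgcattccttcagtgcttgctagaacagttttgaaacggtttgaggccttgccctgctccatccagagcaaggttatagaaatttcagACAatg
Read on the strand of the snoRNA, TGATGA followed by CTGA was found in 220 of 288 transcripts named SNORD (76.4%). An ACA within the last 9 bases was found in 134 of 149 named SNORA (89.9%).

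The host genes span a wide range of levels. Per kilobase of annotated exon, SNHG29 was highest at 145 ± 6.15 CPM per kb (mean ± SD over all 8 libraries). GAS5, a growth-arrest transcript that carries 11 snoRNAs, followed at 47.3 ± 3.37 CPM per kb and DANCR, a transcript named for holding back differentiation, at 32.6 ± 3.93. The ranges of 1 SD around DANCR, SNHG16 (29.3 ± 2.44) and SNHG6 (28.8 ± 3.49) overlapped from each gene to the next, so their order is within the spread of the libraries. SNHG3 (21.3 ± 2.12) and SNHG1 (20.7 ± 1.08) were likewise not apart, and SNHG5 (18.2 ± 0.946) lay below them. From EPB41L4A-AS1 at 8.92 ± 1.47 CPM per kb down to SNHG12 at 2.697 ± 0.250, the 1 SD range of each host gene overlapped that of the next. SNHG14 is second by plain CPM and 13th per kb, because its annotated exons add up to 43324 bases.

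**Figure D1:**
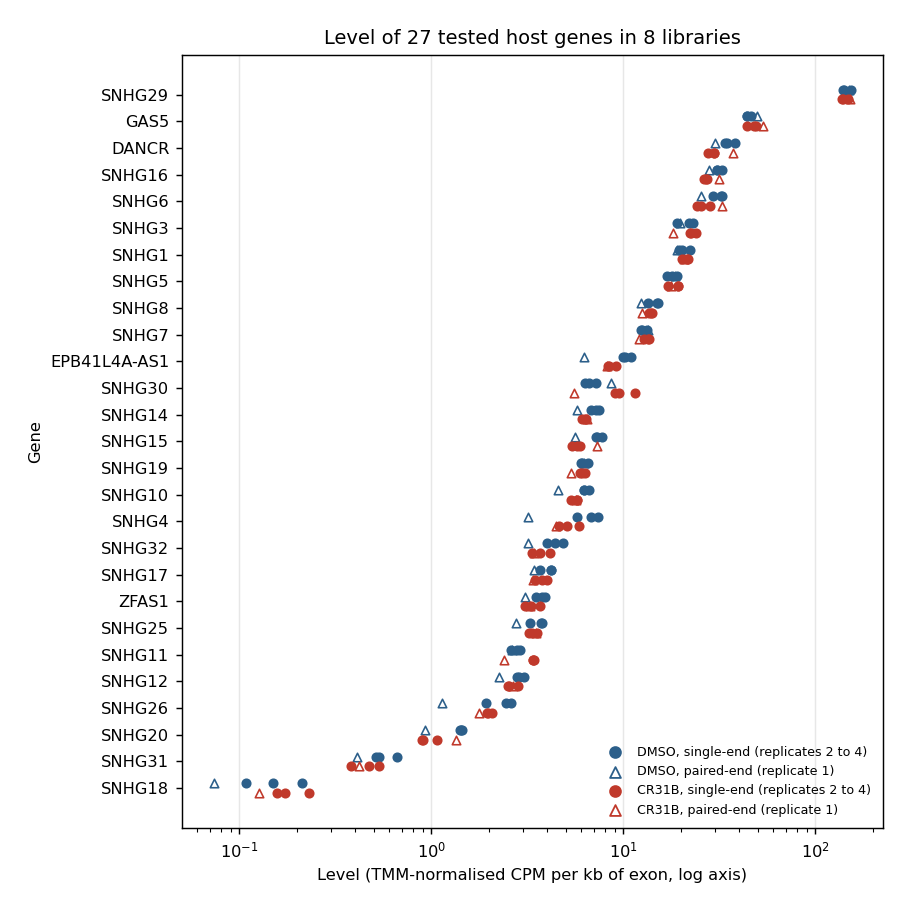
Level of each of the 27 tested host genes per kilobase of exon, in CPM per kb on a log axis, with a point for every library. SNHG9, SNHG21 and SNHG22 were not tested and are not shown. SNHG29 stands above all others at a mean of 145 CPM per kb over the 8 libraries, and SNHG18 is the lowest shown at a mean of 0.154.

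Among the single-end libraries, host genes moved little, and more of them were lower than higher in the libraries labelled CR31B. Of 27 host genes with enough counts to be tested, 8 were lower and 2 higher by the edgeR quasi-likelihood test (threshold 0.05 after Benjamini-Hochberg adjustment over all 16696 genes tested). The shares of all tested genes were 17.6% lower and 23.8% higher, 41.3% together, against 10 of 27 host genes in either direction. The balance depended on the scaling: upper quartile scaling gave 11 lower and 1 higher, and total count scaling 9 lower and 1 higher. The whole table shifted down with them: the median log2 fold change of all genes was -0.10 and -0.085 respectively. They called 7519 and 7375 genes in all, and the shares of all genes by direction are not given here. With the main scaling, the median log2 fold change of the 27 was -0.14 (19 below 0) and that of all tested genes -0.0070. The median absolute log2 fold change was 0.19 for the host genes and 0.24 for all tested genes, and none of the 27 reached a 2-fold change. The 3 CR31B libraries all lay below the 3 DMSO libraries for 8 host genes (24.4% of all genes) and all above them for 2 (27.7%).

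**Figure D2:**
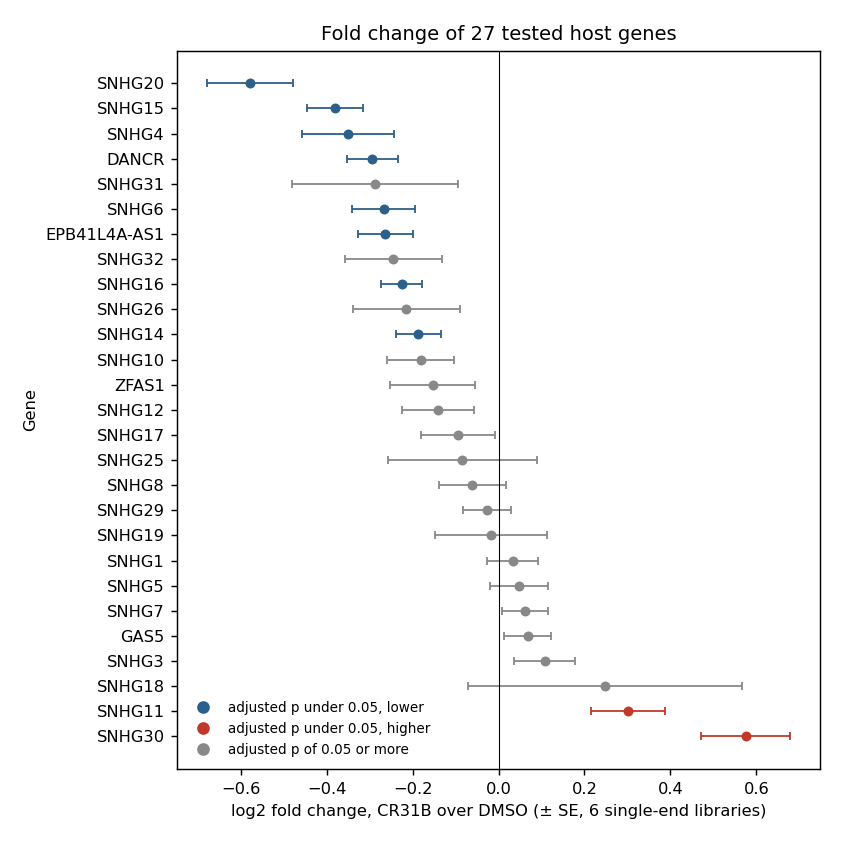
Log2 fold change (CR31B over DMSO) of the 27 tested host genes in the 6 single-end libraries, with bars of 1 SE and colour for the call at an adjusted p under 0.05. The 8 lower genes run from SNHG20 at -0.58 to SNHG14 at -0.19, and SNHG30 (0.58) and SNHG11 (0.30) are higher.

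SNHG20 was the lowest of the host genes by fold change. It lies on chromosome 17 (77086716 to 77099902, plus strand, GRCh38) and carries a scaRNA. Its level in replicates 1 to 4 was 8.15, 5.43, 6.52 and 5.49 CPM in the libraries labelled CR31B and 5.63, 8.61, 8.69 and 8.81 CPM in those labelled DMSO. The 3 single-end CR31B libraries all lay below the 3 single-end DMSO libraries, while in replicate 1 the library labelled CR31B was the higher of the pair. The level fell by 33.0%, a log2 fold change of -0.58 ± 0.10 (SE, edgeR adjusted p 0.00112). The replicate 1 difference was 0.53 on the log2 scale. Genes on the same strand, SEC14L1 with the largest overlap, cover 10.7% of the SNHG20 exon bases, so some of its reads may belong to them. In these bulk libraries fewer cells carrying a transcript and less transcript per cell cannot be told apart.

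SNHG30 showed the opposite pattern. Listed as LINC02001 in GENCODE release 29, it lies on chromosome 17 (35568109 to 35574843, plus strand) and hosts SNORD7, the box C/D snoRNA printed above. Replicates 1 to 4 gave 8.29, 13.6, 17.2 and 14.3 CPM with the CR31B label and 12.98, 9.94, 10.9 and 9.51 CPM with the DMSO label. All single-end CR31B libraries lay above all single-end DMSO libraries, and the replicate 1 pair was again reversed. The log2 fold change was 0.58 ± 0.10 (SE, edgeR adjusted p 0.00137), a rise of 49.0%, against -0.65 in replicate 1. SNHG30 and SNHG20 are the host genes with a call and an absolute log2 fold change of at least 0.5.

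SNHG15 and DANCR, hosts of the H/ACA snoRNAs SNORA9 and SNORA26, were lower. SNHG15 (chromosome 7, 44983023 to 44986961, minus strand) had 26.6, 21.6, 19.8 and 21.0 CPM with CR31B and 20.5, 26.6, 26.3 and 28.4 CPM with DMSO in replicates 1 to 4. Its single-end groups did not overlap, and its log2 fold change was -0.38 ± 0.065 (SE, edgeR adjusted p 0.00102). DANCR (chromosome 4, 52712404 to 52720351, plus strand) had 85.0, 68.1, 67.6 and 63.2 CPM with CR31B and 68.2, 87.4, 79.2 and 77.5 CPM with DMSO. Its single-end groups did not overlap either, and its log2 fold change was -0.29 ± 0.060 (SE, edgeR adjusted p 0.00288). In replicate 1 both were higher in the library labelled CR31B, by 0.38 for SNHG15 and 0.32 for DANCR on the log2 scale.

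SNHG16 and SNHG14, hosts of box C/D snoRNAs and among the 4 most abundant host genes by CPM, were slightly lower. SNHG16 (chromosome 17, 76557766 to 76565348, plus strand) had 169.5, 146.6, 140.9 and 143.7 CPM with CR31B and 149.8, 174.9, 164.4 and 165.3 CPM with DMSO in replicates 1 to 4. The log2 fold change was -0.23 ± 0.048 (SE, edgeR adjusted p 0.00382). SNHG14, the long transcript of the imprinted Prader-Willi region that hosts 83 snoRNAs, lies on chromosome 15 (24978583 to 25419462, plus strand). It had 280.6, 274.8, 262.8 and 276.3 CPM with CR31B and 247.2, 322.6, 292.5 and 311.9 CPM with DMSO. The log2 fold change was -0.19 ± 0.053 (SE, edgeR adjusted p 0.0172), and the single-end groups of both genes did not overlap. In replicate 1 both differences were 0.18 on the log2 scale. The SNHG14 call was lost without DMSO replicate 2 (edgeR adjusted p 0.069) and without DMSO replicate 4 (0.0687). Genes on the opposite strand cover 30.6% of the SNHG16 exon bases, and the strand setting of the counting is not given in the sources used here.

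EPB41L4A-AS1 and SNHG6, hosts of SNORA13 and SNORD87 respectively, were lower by similar amounts. EPB41L4A-AS1 (chromosome 5, 112160526 to 112164276, plus strand) had 27.5, 30.5, 28.1 and 27.8 CPM with CR31B and 20.8, 33.3, 34.0 and 36.6 CPM with DMSO in replicates 1 to 4. The library labelled DMSO replicate 1 lay below all 7 others. The log2 fold change was -0.26 ± 0.064 (SE, edgeR adjusted p 0.00764). SNHG6 had 40.8, 35.4, 30.2 and 31.7 CPM with CR31B and 31.6, 40.7, 36.4 and 40.1 CPM with DMSO, and its log2 fold change was -0.27 ± 0.073 (SE, edgeR adjusted p 0.0144). The replicate 1 differences were 0.40 for EPB41L4A-AS1 and 0.365 for SNHG6. The SNHG6 call was lost without CR31B replicate 4 (edgeR adjusted p 0.0581), DMSO replicate 2 (0.0558) or DMSO replicate 4 (0.0625). Genes on the opposite strand cover 49.6% of the EPB41L4A-AS1 exon bases and 29.3% of those of SNHG6, so reads of the strands may be mixed. The largest overlaps are those of EPB41L4A and MCMDC2 respectively.

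The calls of SNHG4 and SNHG11 were lost under some alternatives, as were those of SNHG14 and SNHG6. SNHG4, a host of H/ACA snoRNAs whose start carries the longest tract printed above, had 19.8, 22.7, 26.3 and 20.7 CPM with CR31B and 14.3, 25.6, 33.0 and 30.5 CPM with DMSO. Its single-end groups overlapped, since CR31B replicate 3 was above DMSO replicate 2. Genes on the same strand, MATR3 with the largest overlap, cover 14.0% of the SNHG4 exon bases, so some of its reads may belong to them. The log2 fold change was -0.35 ± 0.11 (SE, edgeR adjusted p 0.024). It did not pass without CR31B replicate 2 (edgeR adjusted p 0.0549), CR31B replicate 4 (0.0998), DMSO replicate 3 (0.0989) or DMSO replicate 4 (0.0786). SNHG11 had 6.75, 9.55, 9.68 and 9.47 CPM with CR31B and 7.42, 8.19, 7.28 and 7.86 CPM with DMSO, a log2 fold change of 0.30 ± 0.086 (SE, edgeR adjusted p 0.0177). The replicate 1 differences were 0.47 for SNHG4 and -0.14 for SNHG11. The SNHG11 call was lost with upper quartile scaling (edgeR adjusted p 0.0843), with total count scaling (0.0678) and without DMSO replicate 3 (0.0844).

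**Figure D3:**
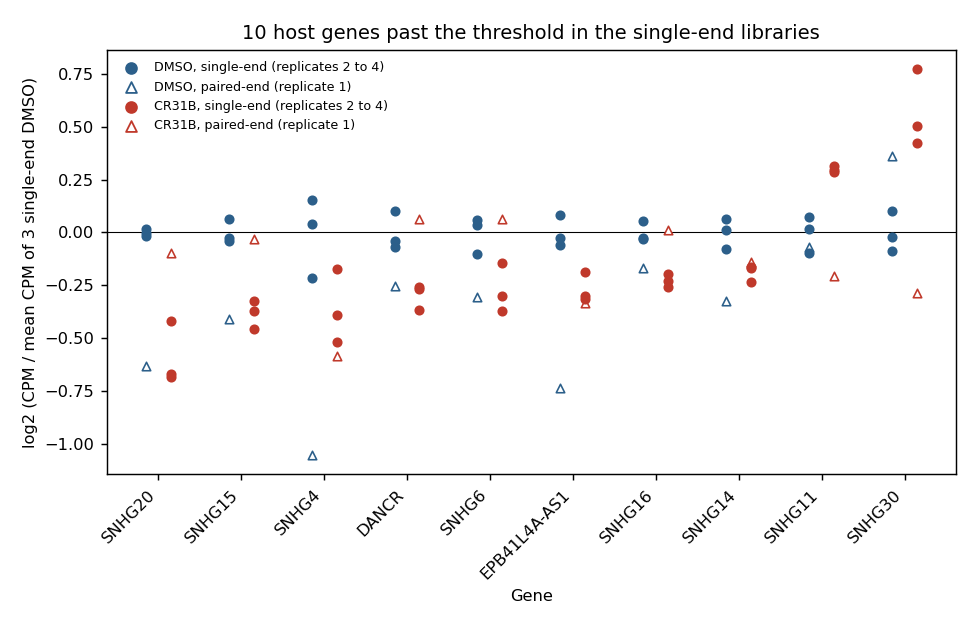
Level of the 10 called host genes in each of the 8 libraries, on a shared axis. Values are log2 of CPM over the gene's mean CPM in the single-end DMSO libraries. Replicate 1 (paired-end) is marked apart from replicates 2 to 4 (single-end). For every gene the replicate 1 pair is ordered opposite to the single-end fold change, as for SNHG20 with underlying values of 8.15 against 5.63 CPM.

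The best known host genes were not among the called ones. GAS5 (chromosome 1, 173863900 to 173868882, minus strand) had 194.4, 173.9, 159.7 and 177.3 CPM with CR31B and 179.4, 168.1, 160.4 and 159.3 CPM with DMSO in replicates 1 to 4. The groups overlapped, and the log2 fold change was 0.07 ± 0.055 (SE, edgeR adjusted p 0.351). SNHG29, the most abundant host gene (LRRC75A-AS1 in GENCODE release 29), had 570.4, 518.1, 525.6 and 553.3 CPM with CR31B and 562.4, 575.6, 524.9 and 528.0 CPM with DMSO. Its log2 fold change was -0.03 ± 0.056 (SE, edgeR adjusted p 0.736).

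SNHG1 (chromosome 11, 62851988 to 62855914, minus strand) hosts 8 box C/D snoRNAs. It had 78.1, 80.6, 81.2 and 76.2 CPM with CR31B and 71.9, 83.7, 73.6 and 75.7 CPM with DMSO, a log2 fold change of 0.03 ± 0.060 (SE, edgeR adjusted p 0.696). SNHG3, which shares its locus with RCC1, had 73.8, 91.7, 98.0 and 91.1 CPM with CR31B and 80.4, 77.4, 93.7 and 89.9 CPM with DMSO. Its log2 fold change was 0.11 ± 0.071 (SE, edgeR adjusted p 0.256). SNHG7 had 52.7, 59.0, 55.7 and 58.3 CPM with CR31B and 58.1, 54.5, 53.6 and 57.8 CPM with DMSO, with a log2 fold change of 0.06 ± 0.053 (SE, edgeR adjusted p 0.383). The single-end groups of all 3 overlapped. The values of GAS5, SNHG1, SNHG5 and SNHG7 changed sign with upper quartile and total count scaling, so none of them has a direction here. An adjusted p above the threshold does not show that these genes were equal in the groups.

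The remaining uncalled host genes lay between -0.29 (SNHG31) and 0.25 (SNHG18) on the log2 scale. SNHG10, a scaRNA host, stood at -0.18 ± 0.079 (SE, log2 scale) with single-end groups that did not overlap and an edgeR adjusted p of 0.0908. With the replicate number as a block its adjusted p was 0.0426 (edgeR) at the same fold change, which brought the lower host genes to 9 of 27. In that fit 23.1% of all genes were lower and 28.1% higher, 51.1% together, and the higher host genes stayed at 2. With GC and length offsets added to the block, SNHG10 was at -0.087 with an edgeR adjusted p of 0.304, and with the offsets alone at -0.087 with 0.404, so the call was not kept. SNHG32 (-0.25, edgeR adjusted p 0.108), SNHG26 (-0.21, 0.196), ZFAS1 (-0.15, 0.242) and SNHG12 (-0.14, 0.205) were below 0 without passing. Other genes on the same strand cover 29.1% of the SNHG32 and 20.9% of the ZFAS1 exon bases. SNHG17 (-0.09), SNHG25 (-0.08), SNHG8 (-0.06), SNHG19 (-0.02) and SNHG5 (0.05) lay closer to 0. Over the tested host genes at 1 CPM or more the standard errors ran from 0.0483 to 0.193, so small changes of the rarer genes could not be detected at this depth.

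The 5 host genes under 1 mean CPM were SNHG25 (0.766 to 1.05 CPM over the 8 libraries), SNHG18 (0.144 to 0.449), SNHG9 (0.0690 to 0.234), SNHG21 (0 to 0.0886) and SNHG22 (0 to 0.0531). SNHG21 had 20 counts and SNHG22 14 over all libraries, and a count of 0 in a library allows up to 0.0596 (DMSO replicate 4) or 0.0642 CPM (CR31B replicate 4). SNHG9, SNHG21 and SNHG22 did not pass the count filter and were not tested. Of the SNHG21 exon bases 72.9% and of the SNHG25 exon bases 48.6% are shared with other annotated genes on the same strand.

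Across all 8 libraries under the labels as given, no host gene passed. With sequencing layout as a covariate, 0 of 27 host genes and 0 of 16518 tested genes (0.0%) had an edgeR adjusted p under 0.05. At an unadjusted p under 0.05 these counts were 0 and 205, and DESeq2 and limma voom each called 0 host genes and 0 genes in all. The log2 fold changes of the host genes ran from -0.31 (SNHG20) to 0.34 (SNHG18), with a smallest adjusted p of 0.707 (edgeR). The biological coefficient of variation over all genes was 16.3% in this fit and 7.46% in the single-end libraries.

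The called host genes followed the whole table in running the other way in replicate 1. All 10 had the opposite sign there, as did 98.8% of all called genes. An interaction of treatment with layout, whose spread comes from the single-end libraries, passed for 11 of 27 host genes and for 42.5% of all genes tested (edgeR, Benjamini-Hochberg). The 11 were the called host genes other than SNHG11, together with SNHG10 and SNHG26. The largest term was that of SNHG30, at -1.22 ± 0.21 (SE, edgeR adjusted p 0.00117).

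**Figure D4:**
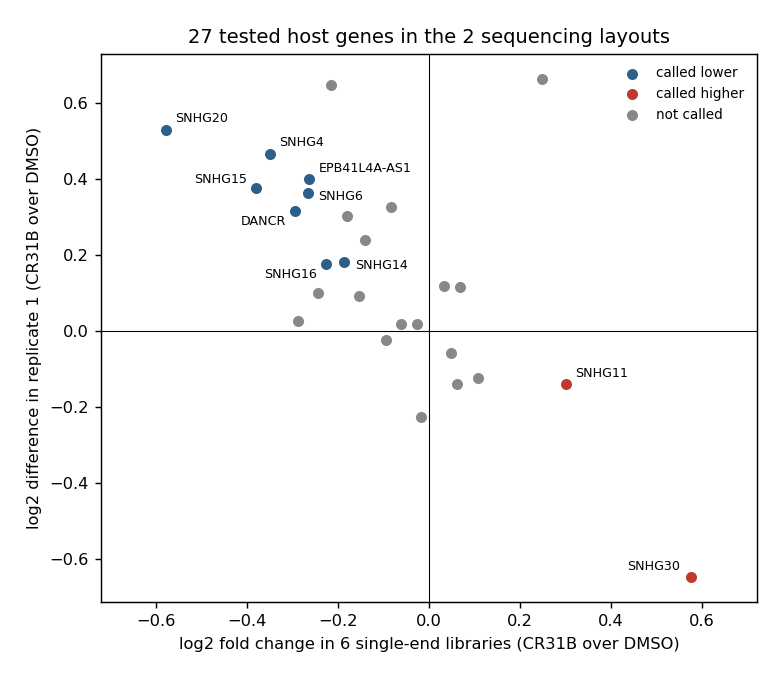
Log2 difference (CR31B over DMSO) of each tested host gene in replicate 1, without a test, against its log2 fold change in the 6 single-end libraries. The 8 lower genes sit at the upper left and the 2 higher ones at the lower right, with SNHG30 at 0.58 and -0.65.

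The host genes were also described by what they carry, and their counts are read against the 17.6% lower and 23.8% higher of all genes tested, whose median was -0.0070. RefSeq places 147 snoRNAs and scaRNAs within the 30 host genes. Of 13 tested hosts of box C/D snoRNAs alone, 3 were lower and 1 higher, with a median log2 fold change of -0.08. Of 10 hosts of box H/ACA snoRNAs alone, 4 were lower and 1 higher, with a median of -0.18. SNHG20 and SNHG10 were the 2 tested scaRNA hosts, and SNHG20 was called. GAS5 and SNHG12, which carry both kinds of snoRNA, were not called. Of the 7 host genes that begin with a tract, SNHG4 alone was lower and the median was -0.14. Of 17 without it 5 were lower and 2 higher, with a median of -0.09. These groups are small and the differences between them were not tested.

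The snoRNAs themselves were barely counted in these libraries, whose molecule is labelled polyadenylated RNA. The part of the RNA selection, the library kit and the counting in this was not tested. Of the 147, 136 were in the count table and they gathered 3189 counts over the 8 libraries. The snoRNAs of SNHG3 gave 1284 and those of SNHG14 1088 of these. Among the 136, no count was recorded for the snoRNAs of SNHG5, SNHG6, SNHG7, SNHG8, SNHG9, SNHG15, SNHG19, SNHG20, SNHG21, SNHG22, SNHG29 and SNHG31. The count table held 2 of the 11 snoRNAs of GAS5, 7 of the 8 of SNHG1 and 1 of the 2 of SNHG5. The others of these hosts have no value. The host gene values above are counts of the host genes' own identifiers. Of 8 snoRNA genes inside host genes that could be tested, SNORA71C in SNHG17 was called (log2 fold change -1.19 ± 0.42 SE, edgeR adjusted p 0.043) on 73 counts in all libraries, with a replicate 1 difference of 1.89.

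Several host genes start close to a protein-coding gene on the opposite strand. Within 2000 bases, 9 such pairs of starts were found. The search did not separate pairs that run apart from pairs that overlap. Of the 9 partners SLC3A2, BARD1, RPS2 and GLRX5 were called in the single-end libraries, where 41.3% of all genes tested were called. These calls are therefore near the background share. SNHG1 and SLC3A2, the heavy chain of amino acid transporters, start 188 bases apart on opposite strands. SLC3A2 had 90.5, 118.6, 135.3 and 138 CPM with CR31B and 134.4, 85.7, 85.8 and 84.3 CPM with DMSO in replicates 1 to 4. Its log2 fold change in the single-end libraries was 0.62 ± 0.061 (SE, edgeR adjusted p 2.94e-05), beside 0.03 ± 0.060 for SNHG1. The replicate 1 difference was -0.57 for SLC3A2 and 0.12 for SNHG1. The difference between the responses of the pair was not tested.

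BARD1, a partner of BRCA1 whose start lies 518 bases from that of SNHG31, was higher (0.43 ± 0.059 SE, edgeR adjusted p 0.000246), beside -0.29 ± 0.19 for SNHG31. RPS2, a small-subunit ribosomal protein gene 99 bases from SNHG9, was lower (-0.24 ± 0.064 SE, edgeR adjusted p 0.0122). GLRX5, a glutaredoxin of iron-sulfur cluster assembly, starts 1369 bases from SNHG10 and was also lower (-0.22 ± 0.071 SE, edgeR adjusted p 0.0324). Genes on the other strand, GLRX5 with the largest overlap, cover 20.1% of the SNHG10 exon bases, so reads of this pair may be mixed. In replicate 1 BARD1 was at -0.44, RPS2 at 0.26 and GLRX5 at 0.26, each opposite to its single-end direction. The partners of GAS5 (ZBTB37), ZFAS1 (ZNFX1), SNHG18 (SEMA5A), SNHG19 (TRAF7) and SNHG22 (ACAA2) were not called.

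**Figure D5:**
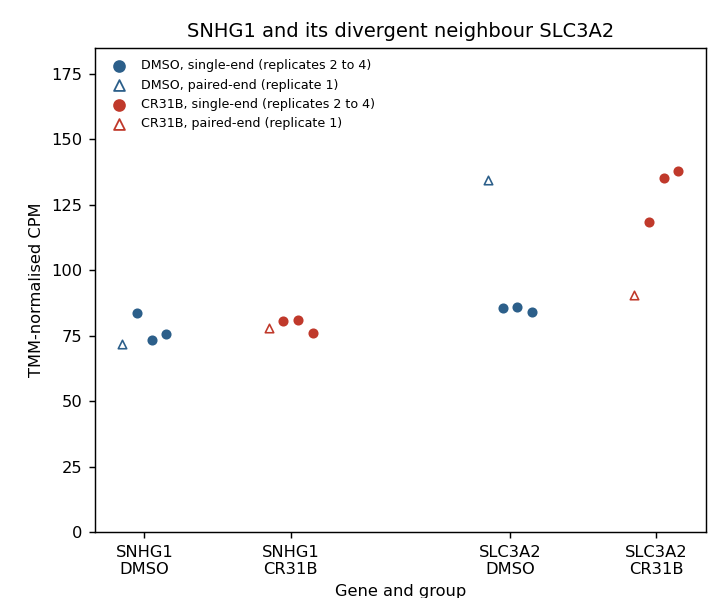
CPM of SNHG1 and of SLC3A2, whose starts lie 188 bases apart, in each of the 8 libraries. SNHG1 stays between 71.9 and 83.7 CPM in all libraries, while SLC3A2 is at 118.6 to 138 CPM in the single-end CR31B libraries and 84.3 to 85.8 CPM in the single-end DMSO libraries.

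Of the genes that assemble snoRNAs into particles, 5 of 18 were higher and 5 lower in the single-end libraries, with a median log2 fold change of -0.04. That is 27.8% in each direction, beside 23.8% higher and 17.6% lower of all genes tested. NAF1, which helps assemble H/ACA particles, was 48.9 ± 2.57 CPM with CR31B and 34.4 ± 0.405 CPM with DMSO (SD, n = 3), a log2 fold change of 0.51 (edgeR adjusted p 6.1e-05). SHQ1, another H/ACA assembly factor, rose by 0.46 (edgeR adjusted p 0.000343). ZNHIT3, a C/D assembly factor, fell by 0.43 (edgeR adjusted p 0.000486), and NOP10, a core H/ACA protein, fell by 0.36 (edgeR adjusted p 0.00155). In replicate 1 NAF1 was at -0.49, SHQ1 at -0.53, ZNHIT3 at 0.21 and NOP10 at 0.19, all opposite in sign.

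Among 32 protein-coding hosts of snoRNAs, 6 were higher (18.8%) and 7 lower (21.9%), with a median of -0.03. The shares of all genes tested were 23.8% higher and 17.6% lower, so both counts are near the background. CHD8, a chromatin remodeller, rose by 0.65 (edgeR adjusted p 1.33e-05) and AP1G1, an adaptor subunit of vesicle transport, by 0.41 (edgeR adjusted p 0.00024). HSPA8, the constitutive heat shock chaperone, was 779.9 ± 152.6 CPM with CR31B and 1483 ± 102.4 CPM with DMSO (SD, n = 3), and it fell by 0.93 on the log2 scale (edgeR adjusted p 0.000198). GNL3, a nucleolar GTPase, fell by 0.36 (edgeR adjusted p 0.00163). In replicate 1 CHD8 was at -0.67, AP1G1 at -0.40, HSPA8 at 0.61 and GNL3 at 0.30, again all opposite in sign.

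Of 18 factors of nonsense-mediated decay, the pathway that breaks down many spliced host transcripts, 9 were higher and 2 lower, with a median of 0.17. SMG9, a regulator of the SMG1 kinase, was 34.8 ± 1.38 CPM with CR31B and 19.8 ± 1.15 CPM with DMSO (SD, n = 3), a log2 fold change of 0.81 (edgeR adjusted p 8.02e-06). UPF3B, which links the exon junction complex to decay, rose by 0.66 (edgeR adjusted p 6.75e-06). CASC3, an exon junction core protein, fell by 0.27 (edgeR adjusted p 0.00106), and MAGOHB, another, by 0.22 (edgeR adjusted p 0.00707). In replicate 1 SMG9 was at -0.98, UPF3B at -0.79, CASC3 at 0.24 and MAGOHB at 0.03. These counts are read against the 23.8% higher and 17.6% lower of all genes tested.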

How the data were processed

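The authors deposited 1 table of raw counts per Ensembl gene, not normalised. FastQC 0.11.7, STAR 2.7.2b, edgeR 3.36.0, limma 3.50.3 and GRCh38 are named, without roles, in the submitters' processing notes. The counting tool, strand setting and annotation release are not given in the sources used here. Of 58787 identifiers 58515 were in GENCODE release 29, which gave coordinates and exon lengths, and symbols came from a current name table. A column name is short of its first letter, and its remaining letters identified CR31B replicate 4. The labels name a small RNA kit although the molecule is polyadenylated RNA.

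Counts were tested with edgeR 4.0.16 (R 4.3.3; filterByExpr, TMM scaling, two-sided quasi-likelihood test, Benjamini-Hochberg over all genes tested, threshold 0.05). All 8 libraries were fitted with layout as covariate, and the 6 single-end libraries without covariates. CPM values are TMM-normalised, and a prior count of 1 entered the log2 differences of replicate 1. Alternatives were DESeq2 1.42.0, voom (limma 3.58.1), scaling by RLE, by upper quartile and by total count, no filter or a filter of 1 mean CPM, no layout term, loess offsets on GC content and length (available for 99.9% of genes), a replicate block and leaving out each library. Same-numbered single-end libraries deviated from their group means with correlations of 0.21, 0.38 and 0.15 for replicates 2, 3 and 4. Over all 8 libraries the correlations were -0.53, -0.08, 0.15 and -0.10 for replicates 1 to 4. Libraries of unlike number were not compared, so pairing by number was not established. The main single-end calls and standard errors ignore it, and the replicate block is the paired alternative. The smallest chi-square per gene between any 2 libraries was 9.23, so none was counted as a duplicate. The scripts were tested on simulated counts. Counts carry no molecular identifiers, so limits set from counts cover counting error only.

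Members and gene lists were chosen with earlier results of these data known. The rule named every member with a count, and asked for values in every library of the 8 most abundant members and of called members past 0.5 on the log2 scale. Values in every library of the other called members, the neighbouring genes and the groups by snoRNA class were added after their values were seen. In each list up to 2 called genes per direction with the largest fold change were named.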

Additional observations from a re-analysis of the deposited data

Results flagged for a closer look

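In 11 of 27 host genes the difference in replicate 1 departed from that in replicates 2 to 4 by a tested interaction term (edgeR, adjusted p under 0.05). The same term passed for 42.5% of all genes tested, so this count is near the background share. The term is the replicate 1 difference minus the single-end difference on the log2 scale. It was 1.11 for SNHG20, 0.871 for SNHG26, 0.82 for SNHG4, 0.76 for SNHG15, 0.667 for EPB41L4A-AS1, 0.634 for SNHG6 and 0.614 for DANCR. It was 0.487 for SNHG10, 0.405 for SNHG16, 0.371 for SNHG14 and -1.22 for SNHG30. Layout and replicate cannot be told apart here.

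In 2 groups a single library stood apart. For SNHG11 the library labelled CR31B replicate 1 lay away from the other CR31B libraries by a gap of 0.931 of the group's range, and for SNHG20 the library labelled DMSO replicate 1 lay away by 0.937, above Dixon's critical value for 4 libraries. With 50 groups checked, chance at 1 in 20 gives about 2.5 such groups.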

How the results depend on the processing

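DANCR, EPB41L4A-AS1, SNHG15, SNHG16, SNHG20 and SNHG30 kept their call and direction in the single-end libraries under every alternative run, with highest adjusted p of 0.0178, 0.0475, 0.00736, 0.0189, 0.00794 and 0.00752 (edgeR, DESeq2 or limma). Of 430 comparisons of a host gene with its value under an alternative, 391 kept direction and side of the threshold, 12 lost a call, 8 gained one and 19 changed sign, none of these 19 in a called gene. The replicate block added SNHG10 (adjusted p 0.0426, edgeR) and changed no other host gene's call, with 8540 genes called in all. Upper quartile scaling also called SNHG10, SNHG12 and SNHG32, total count scaling and a filter of 1 mean CPM called SNHG10, and SNHG32 and SNHG26 passed without CR31B replicate 3 and DMSO replicate 2 respectively.

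With upper quartile or total count scaling 1 host gene was higher. The median log2 fold change of the host genes was -0.24 with upper quartile scaling (all genes -0.10), -0.22 with total count scaling (all genes -0.085), and -0.087 with GC and length offsets, alone or with the replicate block. Leaving out single libraries gave a median from -0.16 to -0.11, 7 to 11 called host genes, 5 to 9 lower (5 without DMSO replicate 4), 1 to 2 higher (1 without DMSO replicate 3) and 5582 to 6727 genes. In all 8 libraries it gave 0 to 10 host genes and 0 to 6920 genes: 6920 without CR31B replicate 1 and 6906 without DMSO replicate 1, with 10 host genes each. In these fits the layout term takes up the 1 paired-end library that is left, so they rest on the single-end libraries.

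Upper quartile and total count scaling turned GAS5 to -0.029 and -0.012, SNHG1 to -0.062 and -0.045, SNHG5 to -0.049 and -0.032, and SNHG7 to -0.034 and -0.017. GC and length offsets, without and with the block, turned SNHG19 to 0.20 and 0.20, SNHG25 to 0.29 and 0.29, and SNHG8 to 0.0036 and 0.0047. Leaving out single libraries, SNHG19 ranged from -0.046 to 0.020 (above 0 without CR31B replicate 3 or DMSO replicate 2), SNHG29 from -0.057 to 0.017 (above 0 without DMSO replicate 2), SNHG1 from -0.011 to 0.090 and SNHG5 from -0.0016 to 0.11 (both below 0 without DMSO replicate 3). The cause of these sign changes was not tested.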

Other observations

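Counting snoRNA genes inside and outside the host genes, 29 had enough counts to be tested in the single-end libraries, and 5 were lower and 1 higher in the libraries labelled CR31B. Of all genes tested 17.6% were lower and 23.8% higher, so the lower count is near the background share. The lower ones include, outside the host genes, 3 copies of SNORD3, which encode the U3 snoRNA of ribosomal RNA cleavage and are transcribed from promoters of their own. SNORD3B-1 had 6.15, 4.67, 5.88 and 5.35 CPM in replicates 1 to 4 of CR31B and 3.69, 9.75, 11.7 and 9.67 CPM in those of DMSO. Its log2 fold change was -0.97 ± 0.12 (SE, edgeR adjusted p 0.000114) and its replicate 1 difference 0.73. SNORD3A had -1.05 ± 0.20 (SE, edgeR adjusted p 0.00169) and 0.85 in replicate 1, and SNORD3B-2 had -0.72 ± 0.13 (SE, edgeR adjusted p 0.00133) and 0.25. These copies are nearly identical, so how reads were divided among them is uncertain. The share of all snoRNA genes in a library's counts was 0.00227% to 0.00495%, so these values rest on a small part of each library.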
